A study of Homo sapiens with 6 samples.

Results

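The genes described here are 10 genes of the YAP/TEAD axis, CCN1, CCN2, VGLL1, AMOTL2, ANKRD1, AJUBA, LATS2, TEAD1, YAP1 and WWTR1, out of 27434 rows quantified per library. They were taken by symbol, each matched to its Entrez gene ID, and each had a row of its own. CCN2 and VGLL1 led to the choice of the list, because they had been among the genes that were higher in the siHOXB-AS3 libraries than in the siNT libraries. Values of the members in that comparison, and in the comparison of the KDs that uses the same libraries, are therefore given as a description, with no p-value. How many of the members were called in them is listed only with the processing alternatives, where it follows from the choice and supports nothing. 9 members passed the filter on low counts, WWTR1 did not, and ANKRD1 passed through the siHOXB-AS3 libraries, where its counts were high.

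HT-29 cells, an established human colorectal cancer line of epithelial origin, were transfected with a pool of siRNAs against the lncRNA HOXA-AS3 (siHOXA-AS3), a pool against the lncRNA HOXB-AS3 (siHOXB-AS3) or a non-targeting control pool (siNT). According to the labels each pool was used at 10 nM and the cells were harvested after 48 h. The methods give a higher dose, so the dose is uncertain. Poly(A) RNA was sequenced in 2 libraries per condition, 6 in all, and all conditions share the same cell line, transfection reagent and time. Nothing in the labels says whether the 2 libraries came from separate cultures, so the spread between them may be technical.

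YAP1 and its paralogue TAZ, encoded by WWTR1, do not bind DNA by themselves and activate genes through the TEAD transcription factors. The Hippo kinase cascade, which ends in LATS1 and LATS2, phosphorylates YAP and TAZ and keeps them out of the nucleus. VGLL1 is a vestigial-like cofactor that binds the same TEAD surface as YAP. CCN1, CCN2 and ANKRD1 are classical targets of YAP/TEAD, while AMOTL2, LATS2 and AJUBA are Hippo pathway components, and AMOTL2 and LATS2 are also targets that feed back on YAP. In the intestinal epithelium the axis is known for its part in regeneration after injury.

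Since TEAD is the DNA-binding factor of this axis, the promoters of the members were searched for its motif. The motif GGAATG was looked for in the 250 bases before each RefSeq start site (GRCh38.p14), on both strands, so that a match on the minus strand of the gene reads CATTCC. The table had an entry for 8 of the members, all but CCN1 and TEAD1, and 6 of those had a match, in at least 1 of their start sites. Of 35116 promoter windows of the same length, 11.9% held the motif. That share is per window, whereas the members were counted per gene, some with more than 1 listed start site. The members also include known targets of TEAD, so nothing is read from the contrast. The 8 windows of 30 bases around the matches follow in the orientation of the gene, with the motif in capitals.
CCN2 window 1: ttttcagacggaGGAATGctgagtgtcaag
CCN2 window 2: gtggggaGGAATGcgaGGAATGtccctgtt
ANKRD1 window 1: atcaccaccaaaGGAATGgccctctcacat
ANKRD1 window 2: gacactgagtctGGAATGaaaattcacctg
VGLL1 window 1: taccatgttcctCATTCCtgcaggtgccca
AMOTL2 window 1: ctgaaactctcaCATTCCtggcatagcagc
AJUBA window 1: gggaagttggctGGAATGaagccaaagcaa
YAP1 window 1: cgggagtgtgcaGGAATGtagcaacttgca

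CCN2 held 3 copies, the first starting 169 bases before its start site (chr6:131951524-131951553, minus strand) and a close pair starting 104 bases before it (chr6:131951454-131951483). ANKRD1 held 2 copies, starting 220 and 128 bases before its start site (chr10:90921290-90921319 and chr10:90921198-90921227, minus strand). VGLL1 held 1 copy, starting 157 bases before its start site (chrX:136532046-136532075, plus strand). AMOTL2 (chr3:134374499-134374528, minus strand), AJUBA (chr14:22976884-22976913, minus strand) and YAP1 (chr11:102110273-102110302, plus strand) held 1 copy each, for AMOTL2 and AJUBA at 1 of their 2 listed start sites. LATS2 and WWTR1 held no copy in these windows. The AP-1 motif TGANTCA, present in 6.57% of the windows, was found in ANKRD1 alone among these members, and the SRF CArG box, present in 1.16%, in none of them. A match describes the letters of the window and is not a measurement of binding.

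Total expected counts per library, the fragments that RSEM assigned to genes, ranged from 15998518 to 26263938. Each targeted lncRNA was lower in both libraries of its own KD than in both siNT libraries, although neither difference passed the test. HOXB-AS3 stood at 27.0 and 29.3 FPKM (fragments scaled by transcript length and library size) in the siNT libraries and at 6.05 and 7.96 FPKM under siHOXB-AS3 (log2 fold change -1.96, adjusted p = 0.068, edgeR). HOXA-AS3 was weakly expressed, at 0.38 and 0.30 FPKM under siNT and 0.13 and 0.19 FPKM under siHOXA-AS3 (log2 fold change -1.09, adjusted p = 0.71, edgeR). The 2 siHOXA-AS3 libraries differed more from each other (SD of the log2 difference over genes 0.73) than those of siNT (0.42) or siHOXB-AS3 (0.37), and their difference followed the GC content of the genes (r = -0.76 across genes). Of 9 colon epithelial markers 8 stood at 19.4 FPKM or more in every library, while CDX2 stayed between 0.10 and 0.34 FPKM. All 10 fibroblast markers were below 0.1 FPKM in every library, as were 9 of 12 endothelial, muscle and immune markers, whereas the lysosomal marker CD68 stood at 9.74 to 15.7 FPKM.

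After HOXB-AS3 KD the classical YAP/TEAD targets stood above their level in the control cells. CCN2 and CCN1 were 4.80-fold and 3.79-fold higher in mean FPKM than in the siNT libraries, and VGLL1 was 3.59-fold higher. AMOTL2, LATS2 and AJUBA were 1.72-fold to 2.09-fold higher. YAP1 and TEAD1, the factors themselves, were 1.32-fold and 1.18-fold higher. All 9 members that could be tested lay above both siNT libraries in both siHOXB-AS3 libraries, where 30.9% of all 13034 genes tested did so and another 30.9% lay below both siNT libraries. Since 2 of the members were chosen on this comparison, nothing is read from that count.

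CCN2, which encodes a secreted matricellular protein also known as CTGF, stood at 8.88 and 10.1 FPKM under siNT, 9.48 and 8.09 FPKM under siHOXA-AS3 and 38.3 and 52.8 FPKM under siHOXB-AS3. Its siHOXA-AS3 libraries overlapped those of siNT, and both siHOXB-AS3 libraries were far above. The log2 fold change was 2.31 ± 0.23 (SE, n = 2 libraries per condition) for siHOXB-AS3 and -0.10 ± 0.23 for siHOXA-AS3, each against siNT.

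CCN1, its matricellular paralogue also known as CYR61, stood at 7.21 and 9.25 FPKM under siNT, 9.83 and 6.36 FPKM under siHOXA-AS3 and 27.9 and 34.5 FPKM under siHOXB-AS3. The order of the libraries was like that of CCN2, with overlap between siNT and siHOXA-AS3 and a gap to siHOXB-AS3. The log2 fold change was 1.97 ± 0.28 (SE) for siHOXB-AS3 and -0.01 ± 0.27 for siHOXA-AS3. The other members of the CCN family, CCN3 to CCN6, had too few counts to test.

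ANKRD1, an ankyrin repeat protein that acts in the nucleus of muscle cells and a sensitive YAP/TEAD target elsewhere, was close to absent outside the siHOXB-AS3 libraries. It had 1 expected count in each siNT library, 0 in both siHOXA-AS3 libraries and 33 and 32 under siHOXB-AS3, which is 0.72 and 0.79 FPKM. Per total count, the siHOXB-AS3 libraries held 29.5 times the siNT level (exact 95% interval 7.84 to 249, which covers counting error only). With an assumed floor of 3 counts over the siHOXA-AS3 libraries the ratio to them was 18.9, with no error counted for the siHOXB-AS3 libraries. As ANKRD1 passed the filter through the siHOXB-AS3 libraries, both ratios are given as a description.

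**Figure D1:**
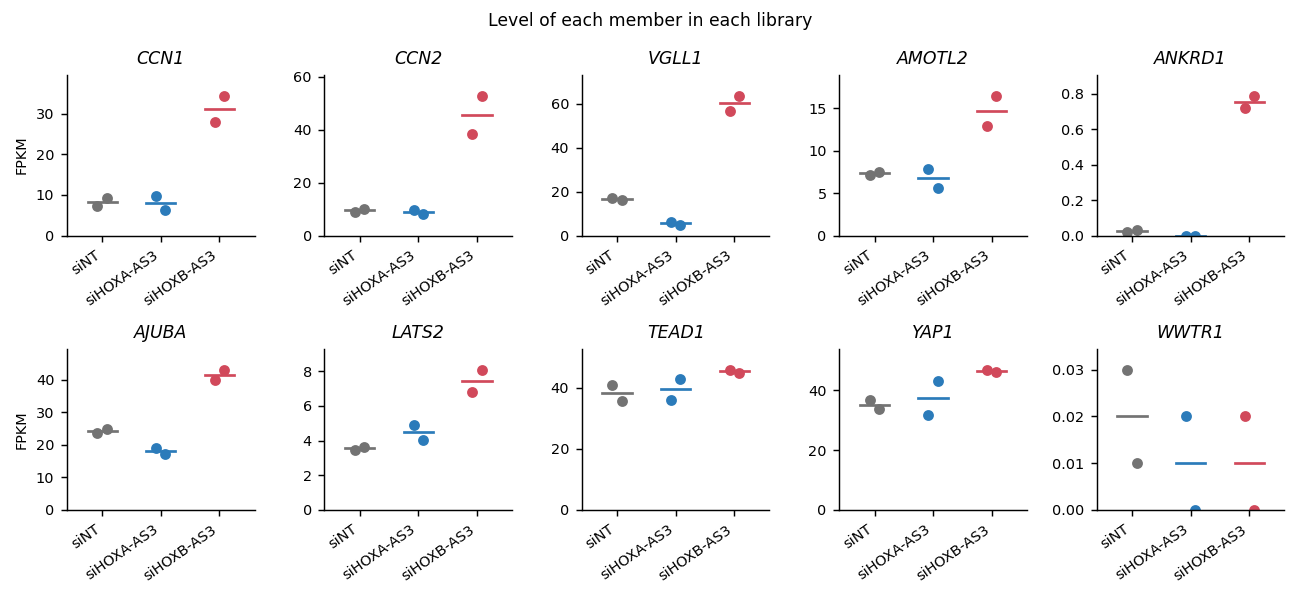
Level of each member in FPKM (y axis, linear, from 0, with its own range in each panel) in each library (points) by condition (x axis), with the mean of the 2 libraries as a line. CCN1, CCN2, VGLL1 and ANKRD1 stand well above the siNT level in both siHOXB-AS3 libraries, VGLL1 is below it in both siHOXA-AS3 libraries at 6.13 and 4.91 FPKM, and WWTR1 stays at or below 0.03 FPKM.

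VGLL1 lay on opposite sides of its siNT level in the 2 KDs. It stood at 17.3 and 16.3 FPKM under siNT, 6.13 and 4.91 FPKM under siHOXA-AS3 and 56.9 and 63.9 FPKM under siHOXB-AS3. The 3 conditions did not overlap, and the gaps between them were larger than the spread within any of them. The log2 fold change was 1.89 ± 0.20 (SE) for siHOXB-AS3 and -1.60 ± 0.21 for siHOXA-AS3. The siHOXA-AS3 mean was 3.04-fold below that of siNT, and the siHOXB-AS3 mean was 10.9-fold above that of siHOXA-AS3. The lowest library had 91 counts of VGLL1 and the highest 1542, so counting error was small beside these gaps.

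AJUBA, a LIM-domain scaffold that binds LATS kinases and limits their activity, had the same order of conditions as VGLL1 with smaller steps. It stood at 23.6 and 24.8 FPKM under siNT, 19.1 and 17.02 FPKM under siHOXA-AS3 and 40.0 and 43.0 FPKM under siHOXB-AS3. The conditions did not overlap, and the log2 fold change was 0.82 ± 0.17 (SE) for siHOXB-AS3 and -0.41 ± 0.17 for siHOXA-AS3. Over all genes tested, 5% lay below both siNT libraries in both siHOXA-AS3 libraries and above them in both siHOXB-AS3 libraries, and 4.04% had the opposite order.

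AMOTL2, an angiomotin that retains YAP at junctions and in the cytoplasm, stood at 7.15 and 7.51 FPKM under siNT, 7.87 and 5.61 FPKM under siHOXA-AS3 and 12.95 and 16.51 FPKM under siHOXB-AS3. Its log2 fold change was 1.05 ± 0.23 (SE) for siHOXB-AS3 and -0.11 ± 0.23 for siHOXA-AS3. LATS2, the kinase that phosphorylates YAP, stood at 3.47 and 3.64 FPKM under siNT, 4.93 and 4.04 FPKM under siHOXA-AS3 and 6.78 and 8.09 FPKM under siHOXB-AS3. It was the 1 tested member that lay above both siNT libraries in both KDs, with log2 fold changes of 1.11 ± 0.20 (SE) for siHOXB-AS3 and 0.35 ± 0.20 for siHOXA-AS3. Both feedback components were thus higher after HOXB-AS3 KD together with the classical targets.

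YAP1 and TEAD1 had the smallest differences of the tested members after HOXB-AS3 KD. YAP1 stood at 36.7 and 33.8 FPKM under siNT, 31.7 and 43.1 FPKM under siHOXA-AS3 and 46.9 and 46.3 FPKM under siHOXB-AS3. TEAD1 stood at 40.9 and 35.6 FPKM under siNT, 35.8 and 43.0 FPKM under siHOXA-AS3 and 45.8 and 44.8 FPKM under siHOXB-AS3. For both, the siHOXA-AS3 libraries spanned the siNT levels, and the siHOXB-AS3 libraries lay above siNT by less than 1 doubling, with log2 fold changes of 0.44 ± 0.18 (SE) for YAP1 and 0.29 ± 0.16 for TEAD1. WWTR1 had between 0 and 4 expected counts per library, so that its level was at the limit of detection in all conditions and no difference could be measured. In these cells the transcripts of the 2 paralogues were thus very unequal, with YAP1 at 31.7 to 46.9 FPKM and WWTR1 at 0.03 FPKM or less.

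**Figure D2:**
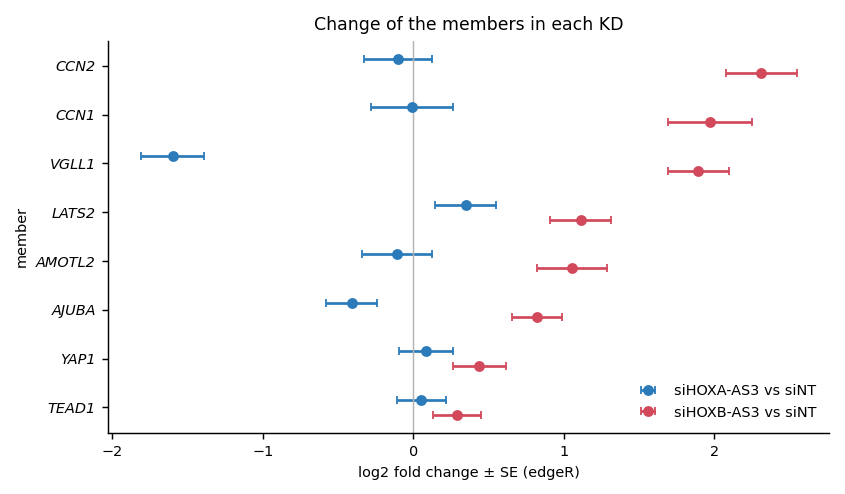
Log2 fold change against siNT (x axis) with its standard error for 8 members (y axis), siHOXA-AS3 in blue and siHOXB-AS3 in red, from 2 libraries per condition. The siHOXB-AS3 values run from 0.29 for TEAD1 to 2.31 for CCN2, and those of VGLL1 lie on opposite sides of 0, at -1.60 and 1.89.

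For siHOXA-AS3 against siNT, where the lower level of VGLL1 was known from earlier results, the test across all genes (edgeR quasi-likelihood, Benjamini-Hochberg adjustment) called 0 of the 9 members and 0% of all genes. DESeq2 called VGLL1 and 0.397% of all genes, and limma-trend on log2(FPKM + 0.1) called 0 members and 0.00767% of all genes. At an unadjusted p under 0.05, where 6.16% of all genes were found, 2 members were found, VGLL1 and AJUBA, both with a negative log2 fold change. The adjusted p of VGLL1 was 0.21 in edgeR and ranged from 3.66e-06 to 1.0 over the alternatives, and with the GC trend of each library removed its log2 fold change was -1.55 (adjusted p = 0.0035). With 1 library left out in turn, the log2 fold change ran from -1.77 to -1.45 for VGLL1 and from -0.51 to -0.31 for AJUBA. 3 members lay below both siNT libraries in both siHOXA-AS3 libraries (VGLL1, AJUBA and ANKRD1), where 16.1% of all genes did so, and 1 lay above (LATS2), where 12.5% did. For ANKRD1 that side rests on 1 count in each siNT library and 0 in both siHOXA-AS3 libraries. It was among the genes tested only through its siHOXB-AS3 counts. Both comparisons share the siNT libraries.

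VGLL1 and YAP1 bind the same surface of TEAD, so their levels were set beside each other, per length. The ratio of VGLL1 FPKM to YAP1 FPKM was 0.471 and 0.484 under siNT, 0.194 and 0.114 under siHOXA-AS3 and 1.21 and 1.38 under siHOXB-AS3. The VGLL1 transcript was thus less abundant than that of YAP1 in 4 libraries and more abundant in both siHOXB-AS3 libraries. VGLL4, the vestigial-like cofactor that represses TEAD targets, stayed between 5.09 and 5.80 FPKM.

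The summed level of the TEAD genes differed less than their proportions. The summed FPKM of TEAD1 to TEAD4 was 101 and 102 under siNT, 94.9 and 84.4 under siHOXA-AS3 and 92.3 and 93.0 under siHOXB-AS3. TEAD2 made up 35.2% and 36.1% of the sum in the siNT libraries, 29.4% and 26.8% under siHOXA-AS3 and 20.3% and 17.96% under siHOXB-AS3. TEAD2 itself stood at 35.6 and 37.0 FPKM in siNT and 18.7 and 16.7 FPKM in siHOXB-AS3, with a log2 fold change of -0.99 that did not pass the test (adjusted p = 0.11, edgeR). TEAD1 was the most abundant TEAD transcript in both siHOXB-AS3 libraries, at 49.7% and 48.2% of the sum, beside 40.5% and 34.8% under siNT. TEAD4 (log2 fold change 0.41, adjusted p = 0.63) and TEAD3 (-0.04, adjusted p = 0.98) had smaller differences, and the sign for TEAD3 turned with the GC trend removed.

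**Figure D3:**
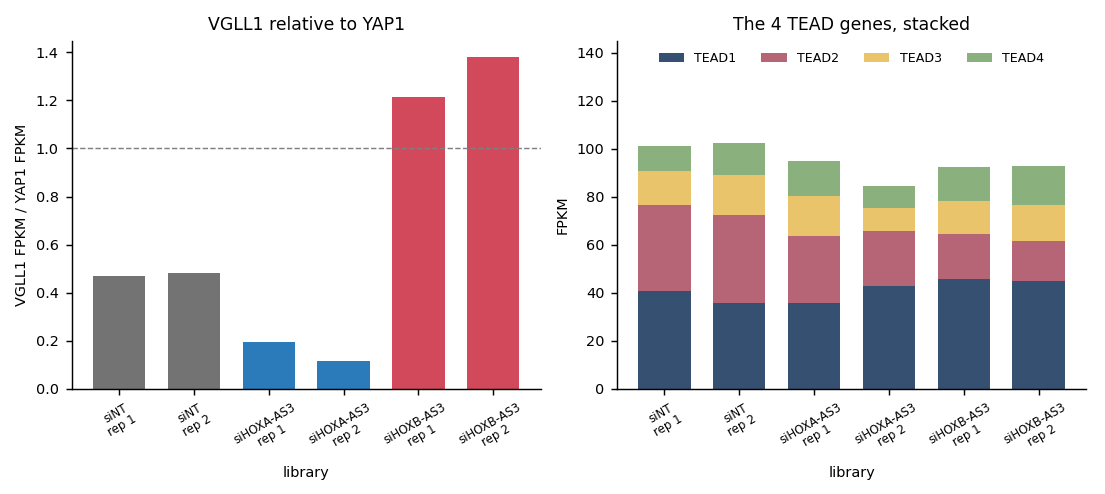
Left, ratio of VGLL1 FPKM to YAP1 FPKM (y axis) in each library (x axis), with the dashed line at equal levels. Right, FPKM of TEAD1 to TEAD4 stacked in each library, where the summed level lies between 84.4 and 102 FPKM and the TEAD2 part is smallest in the siHOXB-AS3 libraries.

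Other genes of a YAP/TAZ signature used across tumours, listed from general knowledge without the members, were split in direction, with 7 fitted higher and 5 lower after HOXB-AS3 KD. Of 17 genes, 16 had rows of their own and 12 could be tested, with a median log2 fold change of 0.20 after HOXB-AS3 KD, beside -0.01 over all genes. EdgeR called 0 of the 12, where it called 0.0614% of all genes, and 3 had an unadjusted p under 0.05, as did 12.2% of all genes. DESeq2 called PTPN14 and NT5E, where it called 2.84% of all genes, while limma-trend called 0, where it called 0.0921%. The counts of the lists that follow are to be read beside these shares. PTPN14, a phosphatase that restrains YAP, stood at 5.66 and 5.44 FPKM in siNT, 6.73 and 6.91 FPKM in siHOXA-AS3 and 12.3 and 12.6 FPKM in siHOXB-AS3 (log2 fold change 1.21, adjusted p = 0.068, edgeR). GADD45A, a DNA damage response gene, had a log2 fold change of 0.86 (adjusted p = 0.31, edgeR). NT5E, the ectonucleotidase CD73, went the other way, from 31.4 and 32.4 FPKM in siNT to 15.3 and 13.7 FPKM in siHOXB-AS3 (log2 fold change -1.09, adjusted p = 0.11, edgeR), and ASAP1, an Arf GTPase-activating protein, had -0.25. After HOXA-AS3 KD the median was 0.09, and edgeR, DESeq2 and limma-trend each called 0, with 0 at an unadjusted p under 0.05.

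Of 15 further reported targets 11 could be tested, with a median of 0.29, and edgeR called 0 after HOXB-AS3 KD, with 4 at an unadjusted p under 0.05 (12.2% of all genes) and 3 called by DESeq2 (AREG, MYC and EDN1, beside 2.84% of all genes). EDN1, which encodes the vasoactive peptide endothelin-1, stood at 1.14 and 1.20 FPKM in siNT, 1.25 and 0.83 FPKM in siHOXA-AS3 and 6.05 and 8.99 FPKM in siHOXB-AS3 (log2 fold change 2.73, adjusted p = 0.066, edgeR), a pattern close to that of CCN2. AREG, a ligand of the EGF receptor, stood at 335 and 367 FPKM in siNT and at 636 and 788 FPKM in siHOXB-AS3 (log2 fold change 1.07, adjusted p = 0.10, edgeR). MYC, a transcription factor of cell growth, stood at 105 and 97.6 FPKM in siNT and at 191 and 226 FPKM in siHOXB-AS3 (log2 fold change 1.09, adjusted p = 0.077, edgeR). CCND1, which encodes cyclin D1, and BIRC5, which encodes survivin, had the lowest values of the list's genes at 1 FPKM or more, at -0.30 (adjusted p = 0.58) and -0.08 (adjusted p = 0.91). After HOXA-AS3 KD the median was also 0.29, edgeR and DESeq2 called 0, and 6 genes had an unadjusted p under 0.05 (6.16% of all genes). Of these, 3 were lower, CCND1 at -0.83, THBS1 at -0.60 and BIRC5 at -0.48. The other 3 were higher, EREG at 0.71, TNFRSF12A at 0.68 and JAG1 at 0.57.

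Of 54 Hippo pathway genes outside the members, which cover the kinase cascade, junction scaffolds, the STRIPAK phosphatase complex and the TEAD and vestigial-like families, 45 could be tested. After HOXB-AS3 KD their median log2 fold change was 0.08, edgeR called 0, and 6 of the 45 had an unadjusted p under 0.05, beside 12.2% of all genes. DESeq2 called TEAD2, MAP4K4 and PTPN14, beside 2.84% of all genes, while limma-trend called 0. PTPN14 is also on the signature list, so its calls count in both lists. After HOXA-AS3 KD the median was 0.12, edgeR, DESeq2 and limma-trend each called 0, and 3 had an unadjusted p under 0.05, beside 6.16% of all genes. MAP4K4, a kinase that activates LATS, stood at 6.74 and 6.68 FPKM in siNT, 8.29 and 8.90 FPKM in siHOXA-AS3 and 3.69 and 3.81 FPKM in siHOXB-AS3. It was called lower in siHOXB-AS3 than in siHOXA-AS3 (log2 fold change -1.15, adjusted p = 0.038, edgeR), and PTPN14 was called higher (0.90, adjusted p = 0.047, edgeR), where 1.57% of all genes were called between the KDs. In the other gene lists described here, edgeR called EDN1, AREG and MYL9 higher in that comparison, and NT5E, EPCAM and CEACAM5 lower. STK3, the kinase at the head of the cascade, stood at 15.3 and 14.2 FPKM in siNT and 24.4 and 25.3 FPKM in siHOXB-AS3 (log2 fold change 0.80, adjusted p = 0.32, edgeR), with siHOXA-AS3 at 11.8 and 21.5 FPKM. The remaining genes had values between these, such as RASSF1 at 0.72, NF2 at -0.18, PALS1 at 0.34, LIMD1 at -0.32, DLG5 at -0.06, STRN4 at 0.27, PDCD10 at 0.42, STK25 at -0.13 and SIKE1 at -0.35, none of which passed the test.

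Programmes that share targets with YAP/TEAD were followed as lists too, and edgeR called 0 genes of each after either KD, as did DESeq2 after HOXA-AS3 KD, with 1 or 2 genes of each at an unadjusted p under 0.05 in that comparison. The share of all genes under that p was 6.16% there, and 12.2% for siHOXB-AS3 against siNT. Of 9 tested AP-1 factors the median after HOXB-AS3 KD was 0.11, with 3 at an unadjusted p under 0.05. BATF stood at 3.72 and 4.02 FPKM in siNT and 8.77 and 9.04 FPKM in siHOXB-AS3 (log2 fold change 1.25, adjusted p = 0.11, edgeR), and ATF3 had 0.90 (adjusted p = 0.15), both called by DESeq2, while JUND (-0.08) and FOS (0.02) were near 0. Of 7 tested SRF targets the median was 0.29, and MYL9, a myosin light chain, stood at 0.57 and 0.58 FPKM in siNT, 0.98 and 1.26 FPKM in siHOXA-AS3 and 3.23 and 3.43 FPKM in siHOXB-AS3 (log2 fold change 2.55, adjusted p = 0.068, edgeR). MYL9 was the 1 gene of the list at an unadjusted p under 0.05 and was called by DESeq2 and limma-trend. TAGLN had 0.77 (adjusted p = 0.67), EGR1 -0.02 and FHL2 0.00.

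Of 8 tested TGF-beta targets the median after HOXB-AS3 KD was -0.20, with 3 at an unadjusted p under 0.05 and BHLHE40 called by DESeq2. BHLHE40 (log2 fold change 1.09, adjusted p = 0.10) and SMAD7 (0.56, adjusted p = 0.46) were the highest, and SKI (-0.69, adjusted p = 0.18) and PMEPA1 (-0.29, adjusted p = 0.60) the lowest of its genes at 1 FPKM or more. Of 7 tested genes known from fetal and regenerating gut epithelium the median was 0.54, with 3 at an unadjusted p under 0.05. ANXA1, which encodes annexin A1, stood at 535 and 504 FPKM in siNT, 437 and 553 FPKM in siHOXA-AS3 and 889 and 871 FPKM in siHOXB-AS3 (log2 fold change 0.81, adjusted p = 0.12, edgeR), and was called by DESeq2. IL1RN had 0.74 (adjusted p = 0.29), and KRT7 (-0.10) and MSLN (-0.01) were near 0.

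**Figure D4:**
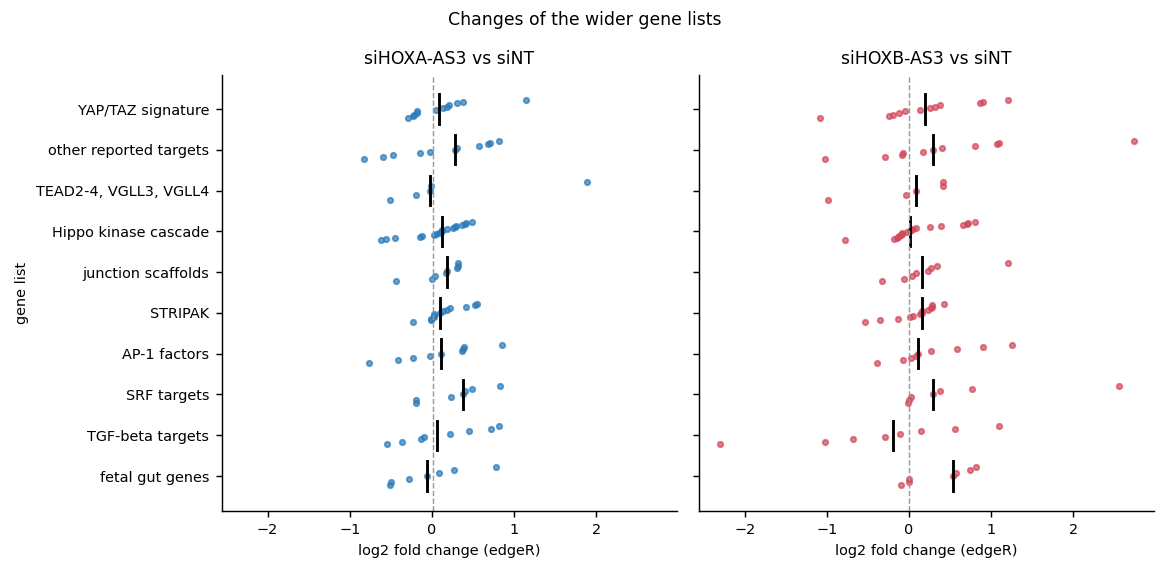
Log2 fold change against siNT (x axis) of the tested genes (points) of 10 gene lists (y axis), siHOXA-AS3 on the left and siHOXB-AS3 on the right, with the median of each list as a black bar and the median of all genes as a dashed line. The list medians after HOXB-AS3 KD run from -0.20 for TGF-beta targets to 0.54 for fetal gut genes, and single genes such as EDN1 at 2.73 and MYL9 at 2.55 lie far from their list.

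Of the 9 colon epithelial markers 1, CEACAM5, was called lower after HOXB-AS3 KD (95.8 and 92.8 FPKM in siNT, 29.7 and 28.1 FPKM in siHOXB-AS3, log2 fold change -1.63, adjusted p = 0.049, edgeR). The log2 fold change was negative for 7 of the 9, as for 50.7% of all genes, and 6 lay below both siNT libraries in both siHOXB-AS3 libraries, as did 30.9% of all genes. EPCAM stood at 289 and 278 FPKM in siNT and at 159 and 153 FPKM in siHOXB-AS3 (-0.81, adjusted p = 0.10, edgeR), while KRT8 and KRT18 had positive values that did not pass the test. The summed level of the 9 markers was 4492 to 4830 FPKM in siNT, 3838 to 5715 FPKM in siHOXA-AS3 and 4194 to 4216 FPKM in siHOXB-AS3. Fewer cells of a state and less RNA per cell cannot be told apart in such bulk libraries. Fibroblasts are cells in which CCN1 and CCN2 are usually abundant. In siNT the summed fibroblast markers stood at 0.07 to 0.11 FPKM, in siHOXA-AS3 at 0.09 to 0.14 and in siHOXB-AS3 at 0.16 to 0.24. Of the 10 markers 5 were at 0 in every library, and a contribution of other cells to CCN1 or CCN2 was not tested.

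The genes whose pattern over the 6 libraries was most like that of CCN2 were ranked by the Euclidean distance of log2 CPM values, each centred on siNT, among 10960 tested genes whose mean FPKM reached 1. The 5 closest were PI3 (distance 0.33), which encodes the protease inhibitor elafin, CCN1 (0.57), EDN1 (0.59), BMP2 (0.83), a secreted morphogen, and CXCL3 (0.98), a neutrophil chemokine. Their log2 fold changes, which the ranking by distance holds close to that of CCN2, ran after HOXB-AS3 KD from 1.70 for CXCL3 to 2.73 for EDN1, with -0.14 to 0.36 after HOXA-AS3 KD. For VGLL1 the closest were ALDH1A3 (1.01), a retinaldehyde dehydrogenase, SECTM1 (1.24), PLAC8 (1.30), Entrez gene 554223 (1.31), which had no symbol in the table used, and HDAC9 (1.33), a class II histone deacetylase. The nearest gene to VGLL1 was farther from it than all 5 were from CCN2. Ranked by correlation instead, 2 of the 5 genes for CCN2 (EDN1 and PI3) and 0 of the 5 for VGLL1 were shared, because correlation ignores the size of the steps.

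**Figure D5:**
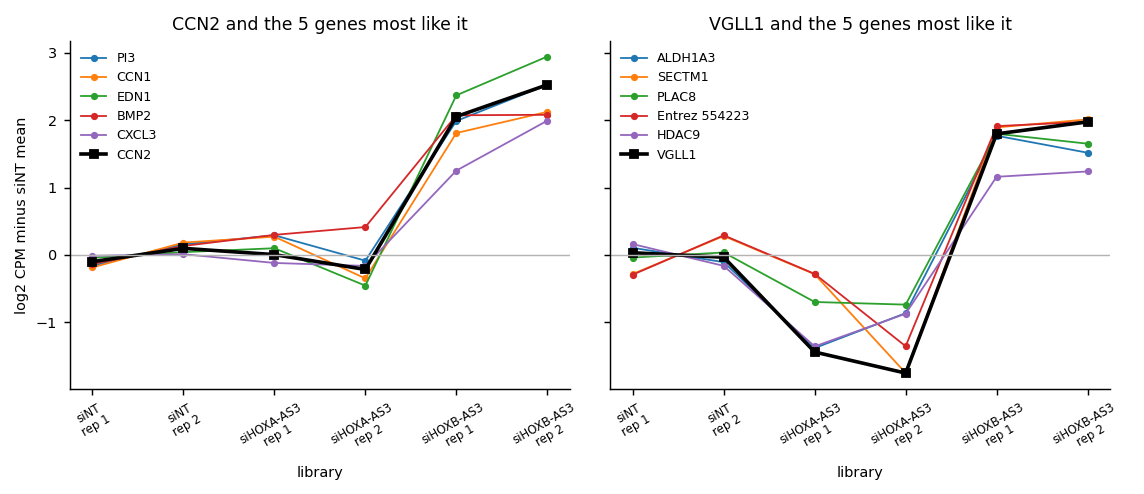
Log2 CPM minus the siNT mean (y axis) in each library (x axis) for CCN2 (left) and VGLL1 (right) in black and for the 5 genes most like each in colour, with lines joining the values of 1 gene. The 5 genes beside CCN2 lie between -0.46 and 0.41 under siHOXA-AS3, while VGLL1 reaches -1.44 and -1.75 there and its nearest genes lie between -0.28 and -1.75.

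After HOXB-AS3 KD the nearest tested neighbours had smaller differences than CCN1, CCN2 and VGLL1. Since CCN2 and VGLL1 led to the choice of the list by their differences in that comparison, nothing is read from this contrast. CCN2 (GRCh38, chr6:131948176-131951373) lies between ENPP1, with a log2 fold change of 0.84 after HOXB-AS3 KD (adjusted p = 0.55, edgeR), and STX7, with -0.15 (adjusted p = 0.82). The next tested genes on each side, OR2A4 and VNN1, had -0.63 and -0.35. CCN1 (chr1:85580761-85583962) lies between DDAH1, with 0.15, and ZNHIT6, with 0.41, and the next genes BCL10-AS1 and ODF2L had -0.17 and -0.21. VGLL1 (chrX:136532152-136556807) lies between HTATSF1, with 0.12, and RBMX, with 0.06, whose values after HOXA-AS3 KD were 0.27 and -0.13. Further out, MAP7D3 had 0.76 (adjusted p = 0.18) after HOXB-AS3 KD. None of the neighbours named here passed the test in any comparison.

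The siRNA pools themselves were set against the members, since a guide strand can also act on other transcripts through its seed. The sense strands of the pools follow, with the 7 bases that were searched for in 3′ UTRs, the complement of guide bases 2 to 8, in capitals.
siHOXA-AS3 strand 1: gagacagaauaGCGAACAa
siHOXA-AS3 strand 2: caauggaagggCCGAACAa
siHOXA-AS3 strand 3: aggaaaggacaGCGAAGCu
siHOXA-AS3 strand 4: guagacagggcACUCGUUa
siHOXB-AS3 strand 1: cgacaaagggaGACAAAGuuu
siHOXB-AS3 strand 2: gagucgggcauGAAAGAAauu
siHOXB-AS3 strand 3: gucaaggggugAAGGGAAauu

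In the longest annotated 3′ UTR of each member the siHOXA-AS3 strands had 0 matches in all 10 members, VGLL1 and AJUBA included, where 5.51% of 11351 tested genes had a match. The 3′ UTR of VGLL1 is short, at 268 bases. The siHOXB-AS3 strands had 1 match in AMOTL2, 1 in ANKRD1, 2 in TEAD1 and 2 in WWTR1 and 0 in the other members, CCN1, CCN2 and VGLL1 included, where 40.5% of the tested genes had a match. The 3 tested members with a match and the 6 without one all had a positive log2 fold change after HOXB-AS3 KD. That comparison led to the choice of the list, and 50.7% of all genes had a negative value in it. Nothing is read from these signs, and an action of the seeds on the members was not tested.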

How the data were processed

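RNA-seq of 6 HT-29 libraries was analysed. The authors made the libraries with the SENSE mRNA-Seq kit and quantified them with RSEM on RefSeq genes (hg19 per the labels). For the aligner, RSEM version and strandedness the sources used here give nothing. Per the file headers, expected counts (unnormalized estimates), TPM and FPKM (scaled by length and library size) were deposited by the authors. Total expected counts ranged from 15998518 to 26263938, and 627 of 27434 rows join several genes and hold 6.02% to 6.62% of the counts. TGFB2, FSTL1, SCRIB and MOB4 share such rows and were left out of lists.

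Expected counts were rounded and tested with edgeR 4.0.16 in R 4.3.3 (filterByExpr with a minimum count of 10, TMM, robust quasi-likelihood fit of all 6 libraries, Benjamini-Hochberg over 13034 genes, threshold 0.05). The procedure was also run on simulated counts. These were drawn without a GC trend and with the same spread in all conditions, so that run cannot show how either affects the calls. Alternatives used DESeq2 1.42.0, limma 3.58.1, other scalings and filters, removal of a GC trend, and omission of each library in turn. The members and gene lists were chosen with earlier results of these data known. All members were named, and from each other list the called genes and the 2 highest and 2 lowest in siHOXB-AS3 against siNT at a mean FPKM of at least 1. AREG, CEACAM5 and EPCAM were named after their values were seen. Positions came from GENCODE and promoter windows from RefSeq, both GRCh38, by Entrez gene ID. Replicate numbers were not shown to pair the libraries, as deviations of same-numbered libraries correlated at -0.35, -0.14 and 0.15. Those deviations also followed GC content (r = 0.44 in siNT and -0.76 in siHOXA-AS3), so these values cannot exclude a pairing. The files hold no sequence of the proteins, so none is shown. A further result is not reported here.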

Additional observations from a re-analysis of the deposited data

Results flagged for a closer look

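Of the genes named that had at least 3 counts in each condition, 10 had both siHOXA-AS3 libraries on one side of both siNT libraries and both siHOXB-AS3 libraries on the other. Over all 13034 genes tested, 5% were lower after HOXA-AS3 KD and higher after HOXB-AS3 KD in this way, and 4.04% the reverse. As several of the 10 were named for their likeness to a member, nothing is read from the count. The log2 difference of siHOXB-AS3 from siHOXA-AS3 was 3.49 for VGLL1 and 1.23 for AJUBA, which were lower after HOXA-AS3 KD and higher after HOXB-AS3 KD. RASSF1, a tumour suppressor that binds the kinases of the Hippo cascade, had the same order and a difference of 1.34, with 3.29 and 4.37 FPKM in siNT, 3.03 and 1.82 FPKM in siHOXA-AS3 and 6.74 and 5.33 FPKM in siHOXB-AS3. MAP4K4 and LIMD1 had the reverse order, with differences of -1.15 and -0.64. LIMD1, a relative of AJUBA, stood at 2.29 and 2.03 FPKM in siNT, 2.62 and 2.70 FPKM in siHOXA-AS3 and 1.71 and 1.63 FPKM in siHOXB-AS3. CXCL3, named for its likeness to CCN2, and ALDH1A3, SECTM1, PLAC8 and HDAC9, named for their likeness to VGLL1, had the order of VGLL1, with differences of 1.84, 2.76, 2.89, 2.45 and 2.37. For the last 4 that order was favoured by how they were chosen. SECTM1 met it narrowly, at -0.285 in siHOXA-AS3 replicate 1 beside -0.282 in siNT replicate 1 (log2 CPM minus the siNT mean). Entrez gene 554223, chosen in the same way, did not meet it, at -0.281 beside -0.292 in the same libraries. ANKRD1 had the same order but 0 counts in both siHOXA-AS3 libraries. The difference between the 2 KD effects was not tested apart from the fit of siHOXB-AS3 against siHOXA-AS3, and 2 libraries per condition are too few to look for single outlying libraries.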

How the results depend on the processing

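The log2 fold changes of CCN1, CCN2, VGLL1, AMOTL2, AJUBA, LATS2, TEAD1 and YAP1 for siHOXB-AS3 against siNT kept their sign under all alternatives, for CCN2 from 2.06 to 2.53 and for VGLL1 from 1.78 to 1.98, and that of VGLL1 for siHOXA-AS3 stayed between -1.77 and -1.45. ANKRD1 ranged from 0.78 to 5.06. The calls varied far more than the fold changes. Calls of members after HOXB-AS3 KD and between the KDs rest on the libraries behind the choice of members, and ANKRD1 passed the filter through those libraries, so these counts are listed as a description and support nothing. For siHOXB-AS3 against siNT, the counts of members, signature targets and Hippo genes called (2, 0 and 0) were 6, 2 and 3 with DESeq2, 8, 3 and 10 with the GC trend removed, 7, 2 and 2 without a filter, and 9, 5 and 13 with only the groups compared, and with the replicate block 0 members were called. Between the KDs (5, 2 and 2) they were 8, 5 and 14 with the GC trend removed, and 1, 0 and 0 both with only the groups compared and with the replicate block. There, signature targets and Hippo genes were both 0 with limma-trend at either pseudocount, and Hippo genes were 4 with DESeq2 and 4 without a filter. For siHOXA-AS3 against siNT (0 in each), 1 member was called with DESeq2, with the GC trend removed and without a filter, and 1 Hippo gene with the GC trend removed. Over all genes, calls for siHOXA-AS3 and siHOXB-AS3 against siNT were 0 and 8, and became 49 and 332 with DESeq2, 413 and 1642 with the GC trend removed and 24 and 265 without a filter. For siHOXB-AS3 against siNT 2995 genes were called with only the groups compared and 0 with the block. Between the KDs the 204 calls became 773, 3189 and 706 with DESeq2, GC removal and no filter, 93 and 76 with limma-trend, 2 with only the groups compared and 10 with the block.

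Leaving out each library in turn gave 0 to 2, 0 to 9 and 0 to 9 members for siHOXA-AS3, siHOXB-AS3 and the KDs against each other, 0 to 4, 0 to 5 and 0 to 7 signature targets, and 0 to 23, 0 to 14 and 0 to 23 Hippo genes. Over all genes it gave 0 to 4031, 0 to 3035 and 0 to 5027 calls. The high ends came without a siHOXA-AS3 library and the low ends without a siHOXB-AS3 or siNT library, and the library left alone was taken to vary like the other conditions. The replicate block is given for completeness, as the numbers were not shown to pair the libraries.

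Several named genes near 0 for siHOXB-AS3 against siNT changed sign. With the GC trend removed TEAD3 was 0.079, DLG5 0.037, JUND 0.085, EGR1 0.087, FHL2 0.031, KRT7 0.025 and MSLN 0.11. FOS was -0.029 with library totals, -0.00163 with a mean FPKM of at least 1, and -0.042 and -0.035 with limma-trend at pseudocounts of 0.1 and 1. FHL2 was 0.0031 with RLE size factors, 0.0089 without a filter, 0.000306 with the replicate block and 0.00824 with DESeq2, and MSLN was 0.00339 without a filter, 0.017 with the block and 0.00336 with DESeq2. Leaving out 1 library gave -0.14 to 0.065 for TEAD3, -0.15 to 0.028 for DLG5, -0.18 to 0.029 for JUND, -0.20 to 0.22 for FOS, -0.30 to 0.22 for EGR1, -0.048 to 0.049 for FHL2, -0.29 to 0.056 for KRT7 and -0.14 to 0.15 for MSLN. The cause of these changes was not tested. Depth limits WWTR1 and ANKRD1, whose counts were 4 or fewer and 33 or fewer per library.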
